A study of Homo sapiens with 15 samples.

Results

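The ATP-binding cassette (ABC) efflux transporters described here are 10 genes, picked by symbol from the 43388 genes in the count files: the lipid transporters ABCA1, ABCA13 and ABCG1, the drug and conjugate transporters ABCG2, ABCB1, ABCC1, ABCC2, ABCC3 and ABCC4, and the porphyrin transporter ABCB6. They were measured by RNA sequencing in A549 cells, an established line from a human lung adenocarcinoma that is widely used as a stand-in for alveolar type II cells. All cultures were held for 72 h in either 95% oxygen (hyperoxia) or 21% oxygen (normoxia), after 24 h of pre-treatment. Within each oxygen level, 3 libraries came from cells given all-trans retinoic acid (ATRA, a vitamin A derivative that acts through nuclear receptors) at 1e-05 mM, 2 from cells given its ethanol vehicle, and 2 from cells whose labels name neither ATRA nor vehicle, called no vehicle below. A further library had labels that disagree with each other and was kept out of all groups.

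ABC transporters are membrane proteins that use the energy of ATP to move a substrate across a membrane. ABCA1 and ABCG1 pass cellular cholesterol and phospholipid to acceptors of the high-density lipoprotein pathway, and both genes are known targets of the liver X receptors, which sense oxysterols and work as partners of the retinoid X receptors. ABCG2, ABCB1 and the ABCC members remove drugs, toxins and glutathione, glucuronide or sulfate conjugates, and in airway and alveolar epithelium they are known for clearing inhaled and metabolic products. Genes of the conjugate exporters are often driven by NRF2, the transcription factor of the antioxidant response.

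The 14 grouped libraries held 2642377 to 5605072 reads assigned to genes (median 4038111.5), with a read on 12657 to 20108 genes. At these depths a floor of 3 reads corresponded to 0.535 to 1.14 CPM, the unit of level used below, which is the read count scaled to a common library size by the trimmed mean of M values. The first hyperoxia no vehicle replicate stood apart, with the lowest number of detected genes and a first principal component score of -116.1 where the other 13 libraries lay between -21.53 and 35.47. The no vehicle fold changes given for single members below are therefore shown with and without it. Results that take vehicle and no vehicle libraries together as controls include it. Among the 10 vehicle and ATRA libraries, the first hyperoxia ATRA replicate stood apart on the second component, at -51.41 where the others lay between -10.14 and 23.96. No pair of replicates agreed within sampling noise. The labels do not say that replicates were separate cultures, so the p-values below measure the spread between these libraries. Of 5 epithelial markers, the keratins KRT8 and KRT18 were high, with means of 1170.7 and 520.7 CPM in hyperoxia with vehicle. KRT19 (32.1 CPM) and CDH1 (10.6 CPM) were lower there, and EPCAM (0.53 CPM) was near the floor. In normoxia without vehicle EPCAM had 4.74 CPM. SFTPB and SFTPC, 2 surfactant genes that define alveolar type II cells, had no reads in the vehicle libraries. The 7 type II markers together reached at most 4.33 CPM. The surfactant protein genes were thus absent or near the floor, while ABCA3, a lipid transporter of type II cells that is not on that list, had 64.5 ± 16.1 CPM in normoxia with vehicle (SD, n = 2).

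Upstream sequence was taken from RefSeq (GRCh38.p14) for 4 members that were called in at least 1 comparison with oxygen or ATRA. Windows were found for 7 of the 10 members, with 12 start sites in all, and those of ABCG1, ABCC1 and ABCC3 were not in the table used. Each line below runs 5′ to 3′ on the gene's own strand, from 250 bases before the annotated start to 30 bases after it. Capitals mark a match to GGTNA followed by 5 bases of any kind and GGTNA again, the letters of a direct repeat of the type that liver X receptors and their partners are known to bind, or to TGACNNNGC, the core of the antioxidant response element, on either strand.
ABCA1, chr9:104928126-104928405, minus strand: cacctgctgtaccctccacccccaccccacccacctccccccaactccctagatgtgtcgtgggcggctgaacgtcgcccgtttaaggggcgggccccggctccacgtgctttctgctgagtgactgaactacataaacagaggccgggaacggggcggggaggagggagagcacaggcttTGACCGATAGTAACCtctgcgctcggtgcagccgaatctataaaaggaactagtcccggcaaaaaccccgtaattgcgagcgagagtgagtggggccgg
ABCG2, chr4:88159261-88159540, minus strand, 1 of its 5 annotated starts: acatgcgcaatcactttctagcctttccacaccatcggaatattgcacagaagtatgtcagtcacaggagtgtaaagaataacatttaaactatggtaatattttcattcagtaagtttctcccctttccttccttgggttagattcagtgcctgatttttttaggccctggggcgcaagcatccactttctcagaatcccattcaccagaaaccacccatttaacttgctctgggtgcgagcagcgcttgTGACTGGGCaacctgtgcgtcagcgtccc
ABCC2, chr10:99782390-99782669, plus strand: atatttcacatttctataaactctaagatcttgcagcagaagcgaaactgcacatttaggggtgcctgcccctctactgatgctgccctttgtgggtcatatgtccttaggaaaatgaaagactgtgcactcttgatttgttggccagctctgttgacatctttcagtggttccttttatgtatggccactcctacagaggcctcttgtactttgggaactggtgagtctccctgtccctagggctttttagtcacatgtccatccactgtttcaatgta
ABCC4, chr13:95301422-95301701, minus strand: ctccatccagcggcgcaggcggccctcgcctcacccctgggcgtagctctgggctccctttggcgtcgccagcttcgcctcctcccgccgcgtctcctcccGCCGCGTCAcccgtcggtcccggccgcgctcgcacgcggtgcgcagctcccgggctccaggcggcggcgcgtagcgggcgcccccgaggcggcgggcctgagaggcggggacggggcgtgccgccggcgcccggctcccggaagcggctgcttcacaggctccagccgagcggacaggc
The direct repeat was present upstream of ABCA1, at bases 182 to 196 of the window, and in no other member window. Of 35116 windows of the same length across the genome, 0.626% held it. The antioxidant core was present in the ABCC4 window above, in that of ABCB6 and in the printed ABCG2 window. In ABCG2 it began at base 2 counted from the annotated start, and the windows at its other starts did not hold it. Of all windows, 13.3% held the core, a share per window and not per gene. None of these letters occurred in the ABCC2 window. The ABCA1 window also held GGGCGG, the Sp1 box, 3 times and CACGTG, the E-box, once, which 45.0% and 7.26% of all windows held. AGGTCA, a single nuclear receptor half-site, occurred in 13.8% of all windows and, among the members, at another start of ABCG2. Searches covered both strands, and in ABCB6 the E-box overlaps the antioxidant core. A match is a stretch of letters and does not show that a factor binds there.

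Of the 10 genes, 8 had enough reads to be tested. ABCA13 and ABCB1 did not, and are described by their reads. On a scale of CPM per kilobase of the MANE transcript, the reference isoform of each gene, which allows genes to be compared, the conjugate exporters ABCC2 (116.4), ABCC3 (92.5) and ABCC1 (63.8) led in normoxia with vehicle. ABCG2 (24.3), ABCC4 (19.0) and ABCB6 (16.9) followed, and ABCG1 (6.24) and ABCA1 (3.46) were the lowest of the tested members. Exons of all isoforms together span 6121 bases in ABCG1 and 11343 in ABCA1, against 2976 and 10408 for the MANE transcript. The order of ABCG1 and ABCA1 therefore depends on the length used. In hyperoxia with vehicle the first 3 places were the same, but ABCA1 came next at 24.2 CPM per kilobase, and ABCG2, at 6.55, was followed only by ABCG1.

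**Figure D1:**
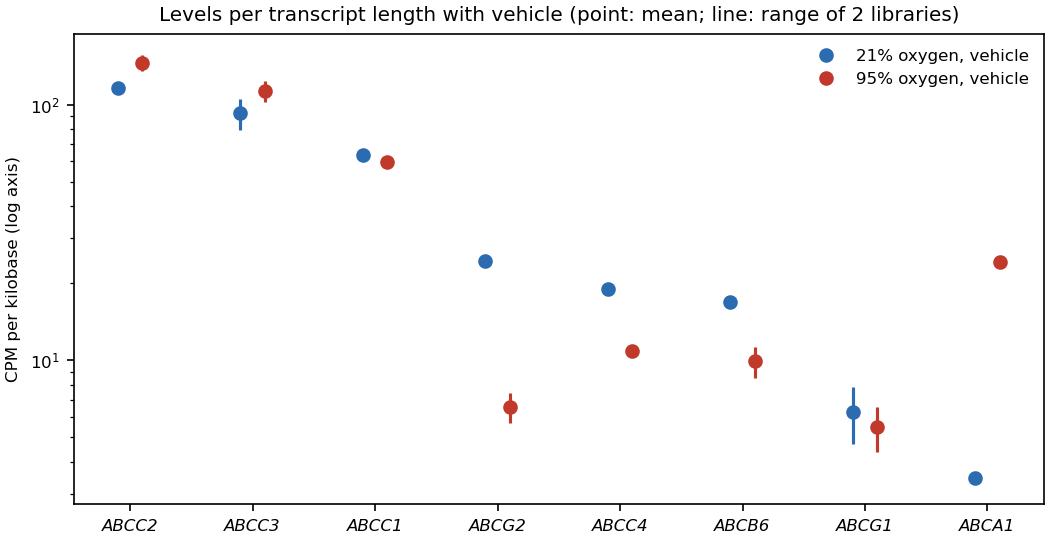
Levels per length of the 8 tested members with vehicle. The vertical axis is CPM per kilobase of the main transcript on a log scale, each point is the mean of 2 libraries, each line spans those 2 libraries, blue is 21% oxygen and red is 95% oxygen. ABCA1 goes from 3.46 to 24.2 and ABCG2 from 24.3 to 6.55, so that ABCA1 lies below ABCG2 in normoxia and above it in hyperoxia.

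The first comparison asked what 72 h of hyperoxia did to these messages in the absence of ATRA. With vehicle, the cholesterol exporter ABCA1 rose 6.96-fold, the drug exporter ABCG2 fell to a level 3.67-fold lower, and ABCC4, which exports cyclic nucleotides and prostaglandins, fell to a level 1.76-fold lower. ABCB6, which carries porphyrins, also fell. ABCG1, ABCC1, ABCC2 and ABCC3 did not pass the test. The 4 called members of 8 compare with 17.5% of all 14957 genes tested, 8.68% called higher and 8.81% called lower, at an adjusted p under 0.05. Adjusted p-values here and below are Benjamini-Hochberg values from the quasi-likelihood test of edgeR unless another tool is named. The members thus moved both ways, 1 higher and 3 lower, while the median log2 fold change over all genes was 0.01. RNA of whole cultures cannot tell fewer cells carrying a message from less message per cell.

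ABCA1 (chromosome 9, 104781006 to 104928155) separated the oxygen levels completely. Its level was 239.4 and 264.5 CPM in the hyperoxia vehicle libraries against 34.4 and 37.6 CPM in normoxia with vehicle. Without vehicle it was 206.1 and 232.3 CPM in hyperoxia and 41.3 and 34.1 CPM in normoxia. Every hyperoxia library lay above every normoxia library, with or without ATRA, and no normoxia library exceeded 59.1 CPM. The vehicle means were 251.9 ± 17.8 and 36.0 ± 2.26 CPM (SD, n = 2 each), a log2 fold change of 2.80 (SE 0.18, adjusted p = 7.78e-10). The 95% interval of the fold ran from 5.40 to 8.97. In the libraries without vehicle the log2 fold change was 2.53 (SE 0.18, adjusted p = 5.63e-07), and it was 2.61 (adjusted p = 6.52e-09) with the first hyperoxia no vehicle replicate left out. NIPSNAP3B, which overlaps ABCA1 on the opposite strand, had reads equal to 1.145% of those of ABCA1.

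ABCG1 (chromosome 21, 42199689 to 42297244), which hands cholesterol on to mature lipoprotein particles after ABCA1, showed no such separation. Its level was 13.0 and 19.4 CPM in hyperoxia with vehicle and 13.9 and 23.2 CPM in normoxia with vehicle. Each pair spans most of the other. The log2 fold change was -0.21 (SE 0.34, adjusted p = 0.755), and its 95% interval from -0.92 to 0.50 left room for a change of either sign. The value without vehicle was 0.10 (adjusted p = 0.895), or 0.47 (adjusted p = 0.57) without the replicate that stood apart.

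ABCG2 (chromosome 4, 88090264 to 88231626), known as the breast cancer resistance protein and a marker of side population cells, had the opposite order to ABCA1. It was at 23.9 and 31.2 CPM in hyperoxia with vehicle and at 106.0 and 98.8 CPM in normoxia with vehicle. The no vehicle libraries gave 35.6 and 41.4 CPM in hyperoxia and 107.6 and 109.9 CPM in normoxia. All hyperoxia libraries lay below all normoxia libraries, and this held with ATRA as well. The vehicle means were 27.6 ± 5.23 and 102.4 ± 5.10 CPM (SD, n = 2 each), a log2 fold change of -1.88 (SE 0.20, adjusted p = 5.23e-07). Without vehicle it was -1.50 (SE 0.20, adjusted p = 0.000101), or -1.40 (adjusted p = 0.000362) without the replicate that stood apart.

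ABCC4 (chromosome 13, 95019835 to 95301451) fell with hyperoxia in each treatment, and its vehicle replicates lay close together. The hyperoxia vehicle libraries stood at 63.4 and 63.4 CPM and the normoxia vehicle libraries at 111.2 and 111.6 CPM. Without vehicle the values were 70.7 and 60.9 CPM in hyperoxia and 113.5 and 110.1 CPM in normoxia. No hyperoxia library of any treatment exceeded 70.7 CPM and no normoxia library was below 110.1 CPM. The log2 fold change was -0.81 with vehicle (SE 0.16, adjusted p = 0.000965) and -0.76 without (SE 0.16, adjusted p = 0.00421), or -0.88 (adjusted p = 0.00637) with the replicate that stood apart left out. LOC102724149, a long noncoding gene that overlaps ABCC4, had reads equal to 3.645% of those of ABCC4.

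ABCC2 (chromosome 10, 99782640 to 99852594), the exporter of glucuronide and glutathione conjugates of liver canaliculi, was higher in every ATRA-free hyperoxia library than in every ATRA-free normoxia library, by a small margin. With vehicle it was at 785.1 and 907.4 CPM in hyperoxia and at 653.4 and 698.6 CPM in normoxia. The log2 fold change of 0.32 (SE 0.13) did not pass the test (adjusted p = 0.0931), whereas it did with DESeq2 (adjusted p = 0.0291). It also passed when vehicle and no vehicle libraries served together as controls (0.38, adjusted p = 0.00433). That fit includes the replicate that stood apart, which had the highest ABCC2 level, and no fit without it is given. Without vehicle the values were 995.1 and 823.1 CPM in hyperoxia and 645.7 and 691.1 CPM in normoxia. That difference passed, with a log2 fold change of 0.44 (SE 0.13, adjusted p = 0.033), but not once the replicate that stood apart was left out (0.30, adjusted p = 0.29). The call was lost in 9 alternatives in all, among them those without the first normoxia no vehicle replicate (adjusted p = 0.264) and without the second (adjusted p = 0.111).

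ABCC1 and ABCC3, broad exporters of conjugates, did not pass. ABCC1 (chromosome 16, 15949143 to 16143053) was at 397.6 and 381.5 CPM in hyperoxia with vehicle and at 399.0 and 430.8 CPM in normoxia with vehicle. Its log2 fold change was -0.09 (SE 0.13, adjusted p = 0.695), with a 95% interval from -0.35 to 0.17. ABCC3 (chromosome 17, 50634881 to 50692253) was at 580.8 and 706.5 CPM in hyperoxia against 451.8 and 601.2 CPM in normoxia, with vehicle. These pairs overlap, and the log2 fold change was 0.29 (SE 0.16, adjusted p = 0.263).

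ABCB6 (chromosome 2, 219209772 to 219218958) was at 25.4 and 33.5 CPM in hyperoxia with vehicle and at 47.6 and 53.2 CPM in normoxia with vehicle. The pairs do not overlap, and the log2 fold change of -0.77 (SE 0.23) passed at an adjusted p of 0.0257. The call depended on single libraries. It was lost without the first hyperoxia vehicle replicate (adjusted p = 0.258), without the first normoxia vehicle replicate (adjusted p = 0.0663) or the second (adjusted p = 0.181), and when all 14 libraries were fitted together (adjusted p = 0.116). In the no vehicle libraries, at 49.9 and 29.6 CPM in hyperoxia and 45.8 and 60.9 CPM in normoxia, the ranges overlapped and the log2 fold change was -0.41 (adjusted p = 0.346). It was -0.85 (adjusted p = 0.0808) without the replicate that stood apart.

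Without vehicle, 4 of the 8 tested members were called, against 15.2% of 15339 genes, 7.57% higher and 7.58% lower, namely ABCA1 and ABCC2 higher and ABCG2 and ABCC4 lower. Without the replicate that stood apart, 3 were called, ABCA1, ABCG2 and ABCC4. Over all 7 hyperoxia and 7 normoxia libraries, the ranges of 3 of the 8 tested members did not overlap, ABCA1 above and ABCG2 and ABCC4 below. Among all genes tested, 13.7% had ranges that did not overlap, 6.34% above and 7.31% below. Markers of cell identity moved with oxygen too. The summed level of 5 epithelial markers was 1685 to 4203 CPM in hyperoxia libraries and 5743 to 9562 CPM in normoxia libraries, and KRT8, KRT18, KRT19 and CDH1 fell with vehicle while EPCAM did not pass. The summed level of 5 leukocyte markers was 60.4 to 103 CPM in hyperoxia and 17.4 to 32.8 CPM in normoxia. CD68, a lysosomal protein of macrophages that epithelial lines also express, made up nearly all of it in the vehicle libraries, where CD3E had no reads. The part of these shifts in the transporter results was not tested.

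**Figure D2:**
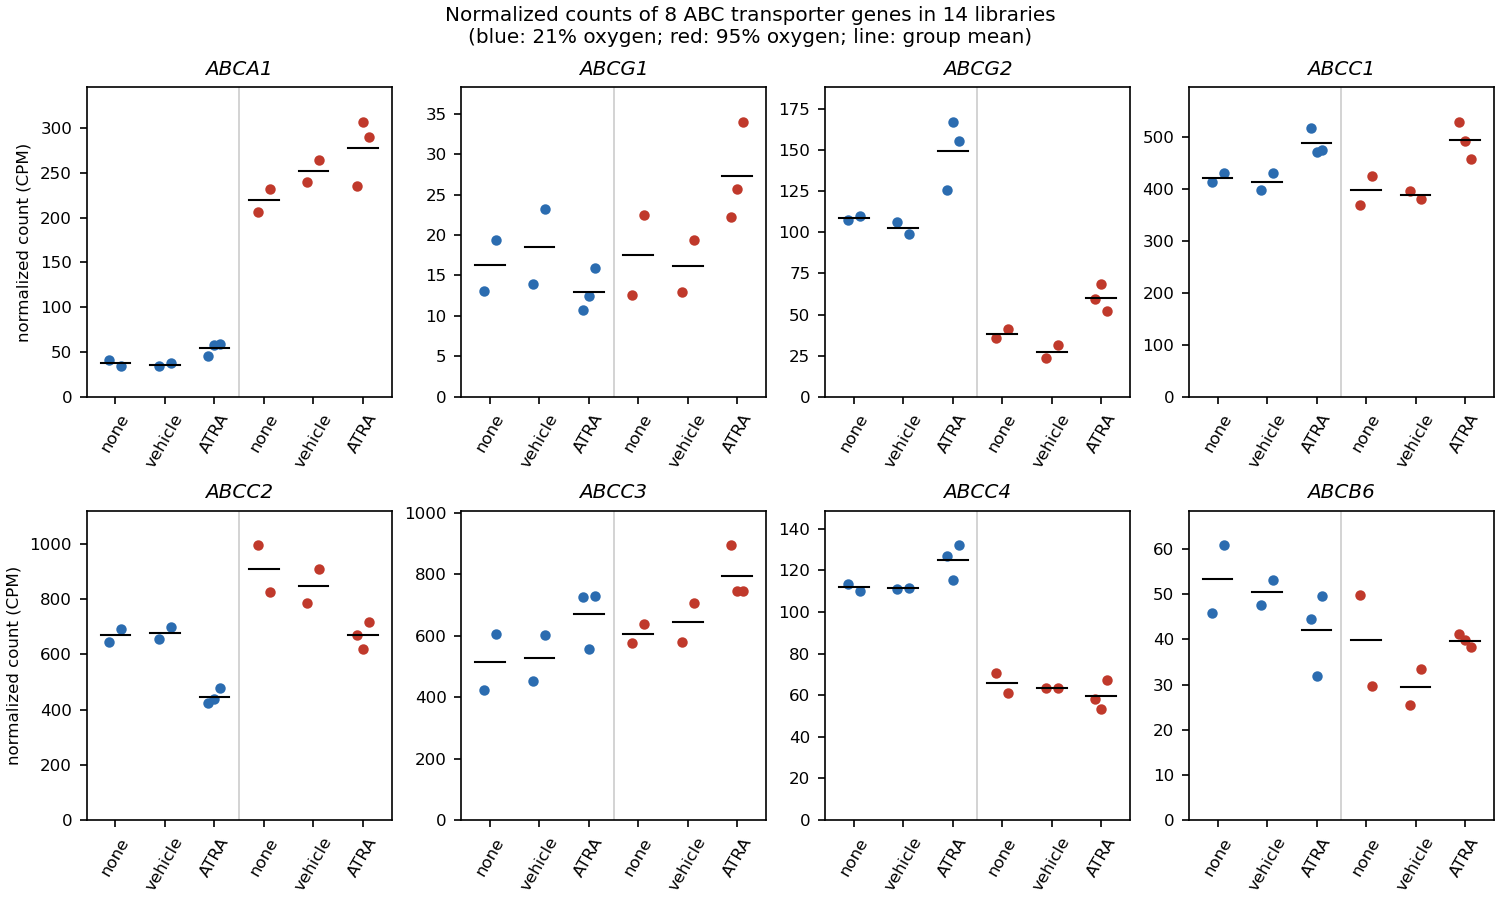
Levels of the 8 tested members in each of 14 libraries. The vertical axis of each panel is CPM from 0, each point is a library and each black line is the mean of a group. Blue is 21% oxygen and red is 95% oxygen. The labels of the groups name vehicle, ATRA or neither (none, called no vehicle in the text). ABCA1 stays at or below 59.1 CPM in normoxia and at or above 206.1 CPM in hyperoxia, ABCG2 and ABCC4 show the opposite separation, and ABCC2 is lowest in normoxia with ATRA.

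The second comparison asked the same of cells that had received ATRA. Here ABCA1, ABCG1 and ABCC2 rose with hyperoxia, and ABCG2 and ABCC4 fell. These are 5 of 8 tested members, where 22.7% of all genes were called, 11.4% higher and 11.3% lower. ABCC1, ABCC3 and ABCB6 did not pass. ABCA1 was at 235.3, 306.9 and 289.5 CPM in hyperoxia with ATRA and at 45.1, 58.0 and 59.1 CPM in normoxia with ATRA. Its log2 fold change was 2.36 (SE 0.14, adjusted p = 1.32e-10).

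ABCG2 was at 59.7, 68.5 and 52.2 CPM in hyperoxia with ATRA and at 125.5, 167.3 and 155.4 CPM in normoxia with ATRA. The groups did not overlap, and the log2 fold change was -1.32 (SE 0.15, adjusted p = 1.55e-06). ABCC4 was at 58.1, 53.6 and 67.3 CPM in hyperoxia against 126.8, 115.5 and 132.2 CPM in normoxia. This gave a log2 fold change of -1.06 (SE 0.13, adjusted p = 4.95e-06), again with no overlap. ABCC2 was at 670.1, 618.7 and 717.0 CPM in hyperoxia against 424.6, 436.6 and 478.3 CPM in normoxia, also without overlap, a log2 fold change of 0.58 (SE 0.11, adjusted p = 0.000362). The 5 calls held when the first hyperoxia ATRA replicate was left out, with 2.46 for ABCA1, 1.20 for ABCG1, -1.32 for ABCG2, 0.58 for ABCC2 and -1.04 for ABCC4 (adjusted p from 1.11e-11 to 0.00433).

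ABCG1 passed the oxygen test with ATRA. It was at 22.2, 25.6 and 34.0 CPM in hyperoxia with ATRA and at 10.7, 12.5 and 15.9 CPM in normoxia with ATRA, so that the groups did not overlap. The log2 fold change was 1.06 (SE 0.29, adjusted p = 0.00976). The call was lost without the third hyperoxia ATRA replicate (adjusted p = 0.0619), without the first normoxia ATRA replicate (adjusted p = 0.0543) and when all 14 libraries were fitted together (adjusted p = 0.0581). The difference between the oxygen effects with ATRA and with vehicle was 1.27 on the log2 scale (SE 0.45), and it did not pass the correction over all genes (adjusted p = 0.461).

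ABCC1 with ATRA was at 530.4, 493.6 and 458.3 CPM in hyperoxia and at 517.2, 472.8 and 476.2 CPM in normoxia, a log2 fold change of 0.02 (SE 0.10, adjusted p = 0.937). ABCC3 with ATRA was at 894.9, 745.0 and 745.4 CPM in hyperoxia and at 724.1, 556.5 and 730.2 CPM in normoxia, a log2 fold change of 0.25 (SE 0.13, adjusted p = 0.198). Every hyperoxia value of ABCC3 was above every normoxia value, yet the normoxia values were widely spread. ABCB6 with ATRA, at 41.1, 39.8 and 38.2 CPM in hyperoxia and 44.6, 31.8 and 49.7 CPM in normoxia, had a log2 fold change of -0.09 (SE 0.19, adjusted p = 0.8).

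The third comparison asked what ATRA did at each oxygen level, against vehicle. In hyperoxia, ABCG2 was 2.15-fold higher with ATRA than with vehicle and was the only one of the 8 tested members to pass, where 2.21% of all genes were called, 1.52% higher and 0.695% lower. In normoxia, ABCC2 was 1.51-fold lower with ATRA and was again the only one of the 8 to pass, where 1.25% of all genes were called, 0.816% higher and 0.435% lower. Each call was lost when 1 vehicle replicate was left out, as given below. The hyperoxia vehicle libraries enter both this comparison in hyperoxia and the oxygen comparison with vehicle, so the 2 values of a gene are not independent. The same holds for the normoxia vehicle libraries in normoxia.

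For ABCG2 in hyperoxia, the ATRA libraries at 59.7, 68.5 and 52.2 CPM lay above the vehicle libraries at 23.9 and 31.2 CPM and above the no vehicle libraries at 35.6 and 41.4 CPM. The log2 fold change against vehicle was 1.10 (SE 0.18, adjusted p = 0.00131), with a 95% interval of the fold from 1.65 to 2.80. Without the first hyperoxia vehicle replicate, the lowest ABCG2 value of all, it was 0.93 and did not pass (adjusted p = 0.0891). Without the first hyperoxia ATRA replicate it was 1.10 and passed (adjusted p = 0.00241). With the vehicle and no vehicle libraries together as controls it was 0.85 and passed (adjusted p = 0.0121). Those controls include the first hyperoxia no vehicle replicate, which stood apart, and no fit without it is given. In normoxia the ATRA libraries, at 125.5 to 167.3 CPM, were also above all 4 ATRA-free libraries, at 98.8 to 109.9 CPM, but the log2 fold change of 0.55 (SE 0.17) did not pass (adjusted p = 0.151). The order of ABCG2 over the 6 groups was normoxia ATRA, normoxia no vehicle, normoxia vehicle, hyperoxia ATRA, hyperoxia no vehicle and hyperoxia vehicle, and the ranges of no neighbouring groups overlapped. ATRA libraries in hyperoxia thus remained below every normoxia library. Of the 5 epithelial markers, 4 also rose with ATRA in hyperoxia, KRT8 (1.01), KRT18 (0.97), KRT19 (0.99) and CDH1 (1.28), and their part in the ABCG2 result was not tested.

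For ABCC2 in normoxia, the ATRA libraries at 424.6, 436.6 and 478.3 CPM lay below the vehicle libraries at 653.4 and 698.6 CPM and below the no vehicle libraries. The log2 fold change against vehicle was -0.60 (SE 0.12, adjusted p = 0.00792). It did not pass without the first normoxia vehicle replicate or without the second (adjusted p = 0.0656 and 0.198). In hyperoxia the ATRA libraries, at 618.7 to 717.0 CPM, were also below all 4 ATRA-free libraries, the lowest of which had 785.1 CPM, with a log2 fold change of -0.34 (SE 0.12, adjusted p = 0.163) that passed with DESeq2 (adjusted p = 0.0265). In the order of group means, hyperoxia with ATRA (668.6 CPM) fell between normoxia with vehicle (676.0 CPM) and normoxia without vehicle (668.4 CPM), and these 3 groups overlapped.

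The other tested members did not pass for ATRA at either oxygen level. ABCA1 had a log2 fold change of 0.58 in normoxia (SE 0.17, adjusted p = 0.124), where all ATRA libraries exceeded all ATRA-free libraries and a fit with sets of consecutive library numbers as a block called it (0.69, adjusted p = 0.0205), and of 0.13 in hyperoxia (SE 0.14, adjusted p = 0.759), where they overlapped and the 95% interval ran from -0.16 to 0.43. ABCG1 gave -0.54 in normoxia (SE 0.32, adjusted p = 0.724) and 0.74 in hyperoxia (SE 0.31, adjusted p = 0.291). ABCC1 gave 0.24 in normoxia (SE 0.12, adjusted p = 0.591) and 0.34 in hyperoxia (SE 0.12, adjusted p = 0.151), and its ATRA libraries exceeded all ATRA-free libraries at both oxygen levels. In hyperoxia ABCC1 passed with DESeq2 (adjusted p = 0.0187). ABCC3 gave 0.35 and 0.30 (adjusted p = 0.476 and 0.377), ABCC4 gave 0.17 and -0.08 (adjusted p = 0.865 and 0.872), and ABCB6 gave -0.26 and 0.42 (adjusted p = 0.848 and 0.418), for normoxia and hyperoxia in turn.

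Against all ATRA-free libraries of the same oxygen level, vehicle and no vehicle together, ABCG2 and ABCC1 lay above and ABCC2 below at both levels without overlap. These are 3 of 8 tested members, where 2.59% of all genes had such ranges at both levels in 1 direction, 1.6% above and 0.984% below. Counted by level, 4 members separated in hyperoxia (ABCG2, ABCC1 and ABCC3 above, ABCC2 below), against 12.1% of all genes, 6.65% above and 5.45% below. In normoxia 5 separated (ABCA1, ABCG2, ABCC1 and ABCC4 above, ABCC2 below), against 12.7% of all genes, 6.32% above and 6.38% below. No member passed the test for an ATRA effect that differed between the oxygen levels with edgeR, and none of the 6 members to which DESeq2 gave an adjusted p passed with it (ABCG1 and ABCB6 got none). With edgeR, 0.14% of all genes passed and 1078 had an unadjusted p under 0.05. Before adjustment, 3 of the 8 members were under 0.05 in edgeR, ABCG1 (difference of 1.27, adjusted p = 0.461), ABCG2 (0.56, adjusted p = 0.634) and ABCB6 (0.68, adjusted p = 0.643).

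**Figure D3:**
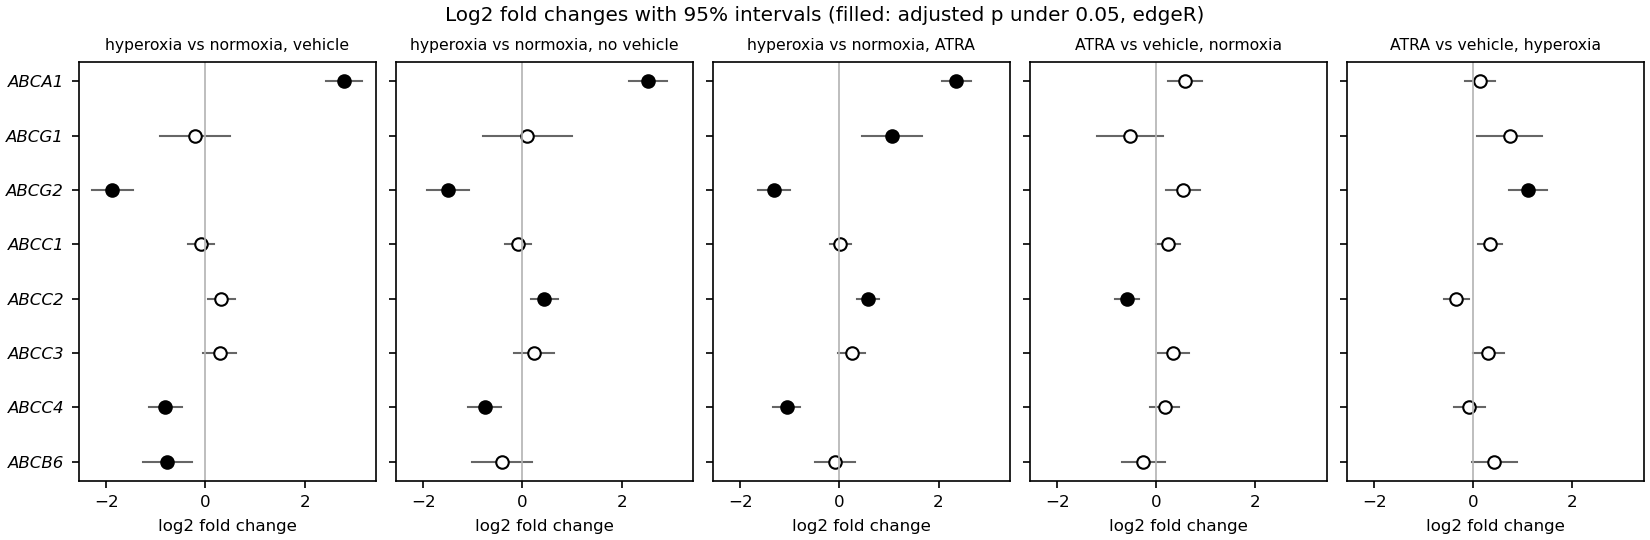
Log2 fold changes of the 8 tested members in 5 comparisons. Each circle is an estimate, each line its 95% interval, and filled circles passed an adjusted p of 0.05 in edgeR. In the panels for oxygen, ABCA1 lies at 2.36 to 2.80 and ABCG2 at -1.88 to -1.32, and in each panel for ATRA a single circle is filled, ABCC2 in normoxia and ABCG2 in hyperoxia.

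ABCA13 and ABCB1 had too few reads to be tested with the other genes. ABCA13 (chromosome 7, 48171458 to 48647497), a very large lipid transporter, had 7, 16 and 8 reads in the hyperoxia ATRA libraries. No other library had more than 1 read, and 8 of them had none. The pooled level with hyperoxia and ATRA was 2.50 plain CPM (95% interval 1.70 to 3.56, which covers counting error only). Against 1 read in each of 3 groups, the ratio was 23.4 for hyperoxia with vehicle (95% counting interval 3.90 to 953), 20.4 for hyperoxia without vehicle (3.40 to 832) and 27.6 for normoxia with ATRA (4.60 to 1126). The normoxia vehicle and no vehicle groups had no reads. Set against a floor of 3 reads over each group, the ratio was 6.92 and 7.91. These are no lower bounds, because the upper 95% counting limits of those groups, 0.445 and 0.390 plain CPM, exceeded the floors (0.362 and 0.317). When low genes were kept in the fit, neither the oxygen effect on ABCA13 with ATRA (adjusted p = 0.0974) nor its ATRA effect in hyperoxia (adjusted p = 0.466) passed.

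ABCB1 (chromosome 7, 87503017 to 87713295), the gene of P-glycoprotein, the classical multidrug pump, had 22, 6 and 1 reads in hyperoxia with ATRA and 6, 4 and 6 reads in normoxia with ATRA. Of the 8 ATRA-free libraries, 3 had a read, with 5, 1 and 1 reads. All 6 ATRA libraries thus had at least 1 read, 45 in all, against 7 in all without ATRA. A single library, the first hyperoxia ATRA replicate that stood apart, held 22 of the 45. With low genes kept in the fit, the ATRA effect in hyperoxia did not pass (adjusted p = 0.411).

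**Figure D4:**
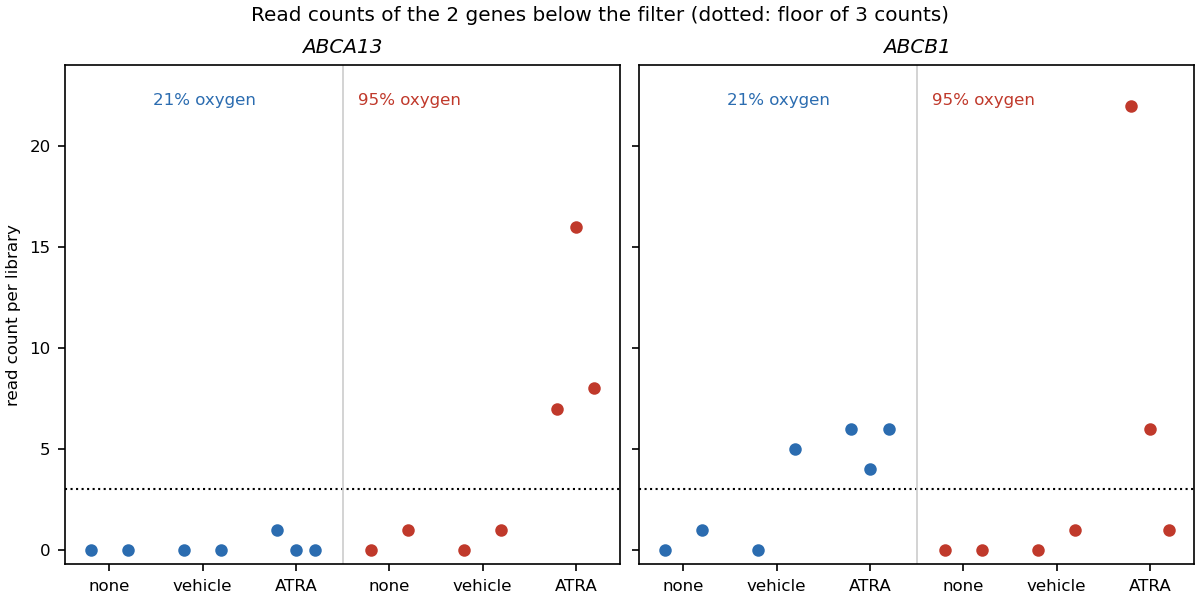
Reads of ABCA13 and ABCB1 in each of 14 libraries. The vertical axis is the number of reads, each point is a library, blue is 21% oxygen, red is 95% oxygen, and the dotted line is the floor of 3 reads. ABCA13 exceeds the floor only in the 3 hyperoxia ATRA libraries, with 7 to 16 reads, and ABCB1 exceeds it in 5 of 6 ATRA libraries and 1 of 8 others.

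Genes that act beside these transporters were described by lists. The counts called in each list stand beside the shares called over all 14957 genes tested. These were 17.5% with oxygen and vehicle and 22.7% with oxygen and ATRA. For ATRA they were 1.25% in normoxia and 2.21% in hyperoxia. Of 38 other ABC genes, 23 were tested. With vehicle, hyperoxia raised TAP1, a peptide transporter of antigen presentation (log2 fold change 1.03), and ABCA3, the surfactant lipid transporter (0.91), and lowered ABCA2 (-0.67). The median over the 23 was 0.04, against 0.01 for all genes. With ATRA 5 were higher in hyperoxia, among them ABCA12, a ceramide transporter (2.45), ABCB9 (1.05) and TAP1 (0.87), and ABCF2 was lower (-0.33). For ATRA none of the 23 was called by edgeR at either oxygen level, with 1 in normoxia and 2 in hyperoxia at an unadjusted p under 0.05, while DESeq2 called 1 of them in hyperoxia, ABCA12.

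Among 12 genes of sterol sensing, 2 rose and 2 fell with hyperoxia and vehicle. The list holds liver X and retinoid X receptor genes beside other genes of lipid handling. NR1H2, the gene of liver X receptor beta (0.86), and RXRB, a retinoid X receptor gene (0.72), rose. SREBF1, the fatty acid regulator (-0.98), and SCD, the stearoyl-CoA desaturase (-1.45), fell. The part of these genes in the ABCA1 result was not tested. The median was -0.08. NR1H3, the gene of liver X receptor alpha, was at 0.64 (adjusted p = 0.235). With ATRA, 3 were higher in hyperoxia (NR1H2 at 0.88, RXRB at 0.80 and RXRA at 0.59) and SCD (-0.53) and SREBF1 (-0.41) were lower. In hyperoxia, ATRA raised SCD (0.87) and SREBF1 (0.68) and no other gene of the list. In normoxia none of the 12 was called by edgeR or DESeq2, and 1 had an unadjusted p under 0.05 in edgeR.

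Among 15 NRF2 targets, 5 rose and 5 fell with hyperoxia and vehicle. HMOX1, heme oxygenase (1.47), OSGIN1 (1.59), TXNRD1, a thioredoxin reductase (0.81), SRXN1 (0.84) and SLC7A11, the cystine carrier (0.63), rose. Those that fell included TKT (-1.03), PGD (-0.79) and ME1 (-0.66), enzymes of NADPH and pentose metabolism, and AKR1C1 (-0.38). The median was -0.13. ATRA lowered 6 of the 15 in normoxia, among them AKR1B10 (-0.86), SRXN1 (-0.71), AKR1C1 (-0.62) and OSGIN1 (-0.88). The median was -0.32, against 0.00080 for all genes. In hyperoxia it lowered AKR1B10 (-0.47), OSGIN1 (-0.90) and SRXN1 (-0.56), with a median of -0.26. ABCC2 fell with ATRA in normoxia beside them. In normoxia ABCC1 (0.24), ABCC3 (0.35) and ABCC4 (0.17) had values of the other sign and did not pass. A link between ABCC2 and these targets was not tested.

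Of the other lists, 10 of 12 regulators of drug handling were tested. EPAS1 (0.57) was higher with hyperoxia and vehicle, while NFE2L2, the gene of NRF2, was at 0.22 (adjusted p = 0.398). Of 14 tested conjugating enzymes, which make the substrates of the ABCC exporters, GSS (0.73) and MGST1 (0.69) rose and GSTP1 (-0.94), MGST3 (-0.78) and SULT2B1 (-5.17) fell, and ATRA raised GSTP1 in hyperoxia (0.64). Of 9 tested uptake carriers, only SLC47A1 was called with hyperoxia and vehicle (0.77).

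The genes whose pattern over the 6 groups was most like that of ABCA1 were FEZ1, CPM (the carboxypeptidase M gene) and THSD1, with a root mean square difference of 0.19, 0.22 and 0.22 between their centred log2 group means. Those most like ABCG2 were CCR7, KRT8 and CRIP1, with 0.11, 0.11 and 0.12. KRT8, an epithelial marker named above, was picked for its likeness to ABCG2 over these same groups. Its log2 fold changes were therefore bound to lie near those of ABCG2 and are no separate evidence. They were -1.73 with hyperoxia and vehicle and 1.01 with ATRA in hyperoxia, next to -1.88 and 1.10 for ABCG2.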

How the data were processed

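The authors, per the labels and the methods of the study, trimmed reads with Trimmomatic 0.38 (minimum length 50 nt), used HISAT2 for alignment to hg38 and HTSeq for counting by gene, and the deposited values are raw counts. Whether counting used strand is not given in the sources used here. Rows for reads outside genes, ambiguous or unplaced, which held 75.2 to 78.4% of each grouped library, were left out of library sizes. The 10 vehicle and ATRA libraries were fitted together in edgeR 4.0.16 under R 4.3.3 (glmQLFit and glmQLFTest, TMM scaling, filterByExpr with a minimum count of 10), and the no vehicle comparison was fitted on all 14 grouped libraries. Intervals are 95% intervals. The code was tested on simulated data. Alternatives were DESeq2 1.42.0, other scaling, no filter, other sample sets, a covariate or block, and leaving out each replicate. Every member was named in each comparison. From each other list, up to 4 genes with the smallest p were named, and called genes in counts of 5 or fewer, NFE2L2 and NR1H3 were named after their values were seen. The members and lists were chosen with earlier results of these data known. The ranges of ATRA against ATRA-free libraries were added after values were seen. Results for some genes of the lists are not reported here.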

Additional observations from a re-analysis of the deposited data

Results flagged for a closer look

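The library kept out of all groups, because its labels give both hyperoxia and a treatment that belongs to another kind of experiment, held 3 transporter levels above those of the 4 ATRA-free normoxia libraries, with ABCA13 set aside because its 1 read there is under the floor of 3 reads. On plain CPM, without scaling between libraries, ABCA1 was at 194.8 where these controls reached 40.0, ABCC2 at 853.8 where they reached 722.7, and ABCC3 at 697.1 where they reached 621.9. ABCG2 (27.9 CPM) and ABCC4 (60.5 CPM) lay below the same controls, whose lowest values were 102.2 and 109.9 CPM. Its ABCA1 level also lay below every hyperoxia library, the lowest of which had 210.2 plain CPM. Its levels of ABCC2, ABCC3, ABCG2 and ABCC4 lay within the ranges of the hyperoxia libraries. All these comparisons rest on 1 ungrouped library and were not tested.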

How the results depend on the processing

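The oxygen effects on ABCA1, ABCG2 and ABCC4 with vehicle and with ATRA kept their direction and their call in all alternatives run. Over replicates left out, the log2 fold change with vehicle was 2.70 to 2.85 for ABCA1, -2.13 to -1.73 for ABCG2 and -0.85 to -0.81 for ABCC4. In the no vehicle libraries the members called went from 4 to 1 (ABCA1) when only those 4 libraries were fitted, and to 3 to 4 with a replicate left out. For ATRA in hyperoxia, 1 member became 3 with DESeq2, and 0 to 1 with a replicate left out. For ATRA in normoxia, 1 became 2 with sets of consecutive library numbers as a block (ABCA1 and ABCC2), and 0 to 1 with a replicate left out. The labels do not call these sets batches. A fit of all 14 libraries with oxygen as a covariate called ABCG2 and ABCC2 for ATRA. It gives a single ATRA value over both oxygen levels, so it is not a result for either level. The 3 members whose ranges did not overlap between oxygen levels were 3 in each alternative. No paired analysis was possible because the labels number each library once, so that groups share no replicate number, and the block of library numbers pairs no samples.

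The covariate fit gives a single ATRA value over both oxygen levels and a single oxygen value over all treatments. Some of these pooled values had the opposite sign to main values that did not pass. For ATRA, they were ABCB6 (0.0713) and ABCG1 (0.12) against normoxia, and ABCC4 (0.0438) against hyperoxia. For oxygen, they were ABCG1 (0.41) against vehicle and ABCC1 (-0.0565) against ATRA. ABCC1 with oxygen under ATRA also changed sign, to -0.000211, with only the 2 groups fitted. With a replicate left out, the sign changed for ABCB6 (-0.25 to 0.0268), ABCC1 (-0.0391 to 0.0582) with oxygen under ATRA, ABCC1 (-0.25 to 0.00957), ABCC3 (-0.0350 to 0.48) and ABCG1 (-0.42 to 0.47) with oxygen and no vehicle, ABCG1 with oxygen and vehicle (-0.57 to 0.21), and the ABCC3 interaction (-0.27 to 0.15). With DESeq2's scaling, the vehicle level of ABCC4 per kilobase was 10.6 and 19.1 instead of 10.8 and 19.0 CPM. This shift was above the very small spread of its vehicle replicates. The causes were not tested.

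Over all genes, the count called with oxygen and vehicle (2616) was 1420 to 4665 in the alternatives and 1386 to 3175 with a replicate left out, and with oxygen and ATRA (3391) it was 1975 to 4622 and 2715 to 3359. With oxygen and no vehicle (2324) it was 58 to 4622 and 969 to 7364, the last without the second hyperoxia no vehicle replicate, which leaves only the library that stood apart in its group and moves the median log2 fold change of all genes from -0.10 to -0.46. With ATRA it was 70 to 300 and 56 to 267 in normoxia (187), 116 to 522 and 83 to 449 in hyperoxia (331), and 4 to 96 and 4 to 28 for the interaction (21). The upper end of 4622, shared by oxygen with ATRA and oxygen with no vehicle, is the count of the covariate fit. That fit gives a single oxygen value over all treatments, so 4622 is not a result for either treatment. Depth limits ABCA13 and ABCB1 most, since a few reads decide their values.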
